A study of Mus musculus with 9 samples.

Results

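Of 19938 genes measured in fetal mouse prostate mesenchymal cells, 37 were Hox genes, and their expression was compared by position along the 4 Hox clusters and by estradiol (E2) dose. The members were all genes in the table of values whose symbol is Hoxa, Hoxb, Hoxc or Hoxd followed by a number, each read from 1 probeset, which is the group of probes that reports a gene on the array. The members comprised 10 Hoxa genes on chromosome 6, 9 Hoxb genes on chromosome 11, 9 Hoxc genes on chromosome 15 and 9 Hoxd genes on chromosome 2. The rule that chose them uses symbols and no measured value.

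Hox genes encode homeodomain transcription factors that give cells their position along the body axis. Within each cluster the genes lie in the order in which they are switched on from head to tail, and genes at the same place in different clusters are paralogs that descend from 1 ancestral gene and share a number. Genes with high numbers, at the posterior end, pattern the hindgut and the urogenital tract, and mouse mutants of Hoxa10, Hoxa13, Hoxb13 and Hoxd13 have changed prostate growth or branching.

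The cells were urogenital sinus mesenchymal cells, the connective tissue precursors that surround the prostate ducts, from male CD-1 mouse fetuses on gestation day 17, used as a first passage of primary culture after epithelial cells had been removed by settling. They were held for 3 days in serum stripped with charcoal, with 690 pM dihydrotestosterone (DHT), before 4 days of exposure to vehicle (ethanol), to 10 pM E2 or to 100 pM E2. DHT was present in all 3 groups, so no group was without androgen, and the series compares E2 doses only. Each group had 3 Affymetrix Mouse Gene 1.0 ST arrays, 9 in all. Each treatment had 3 replicate samples, and whether these came from separate cell preparations is not given in the sources used here, so a p-value here rests on the spread among arrays, which may be technical.

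The labelled cell type was set against marker genes. All 8 mesenchyme markers lay above a dim reference level on every array, as did all 5 smooth muscle markers, 5 of 8 epithelial, 3 of 8 macrophage and 3 of 6 endothelial markers, 2 of 3 glial and nerve markers, and 4 of 5 Wolffian and Muellerian duct markers. The epithelial markers Epcam and Cdh1 had group means between 5.18 and 5.37 on the log2 scale, below that level. The log2 of the summed signal of the epithelial markers was 9.14 to 9.20 with vehicle, 9.10 to 9.18 with 10 pM E2 and 9.32 to 9.38 with 100 pM E2. That of the macrophage markers was 9.00 to 9.13 with vehicle, 8.84 to 9.07 with 10 pM E2 and 8.67 to 8.79 with 100 pM E2. That of the duct markers was 9.45 to 9.53, 9.44 to 9.53 and 9.20 to 9.36 in the same order. The duct sum mainly follows Wt1, with a mean of 8.92 with vehicle and 8.61 with 100 pM E2. The others of that list had group means between 5.56 and 6.30, so this sum is not a reading of duct cells as a whole. With 100 pM E2 against vehicle, 7 of 8 epithelial markers were higher, with Krt18 farthest (0.43), 1 of 8 macrophage markers was higher, with Lyz2 farthest (-0.88), and 3 of 5 duct markers were higher, while Wt1 was at -0.31. The mesenchyme sum lay between 15.27 and 15.31 on all arrays, and the smooth muscle sum between 14.28 and 14.35. Endothelial sums lay between 9.05 and 9.17, and glial and nerve sums between 7.48 and 7.75. Between 100 pM E2 and vehicle limma called the mesenchyme markers Pdgfra (-0.45) and Col3a1 (-0.18), the macrophage marker C1qb (-0.51) and the endothelial markers Kdr (-0.98) and Emcn (0.82). The part of these shifts in the Hox values below was not tested.

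Promoter sequences from RefSeq (build GRCm38.p6, 250 bases before to 50 after an annotated start) matched 21 of the 37 Hox genes, with 23 promoters. Such a start can lie inside the span of the gene, as for Hoxd10 and Hoxc4. Of the 3 promoters below, those of Hoxa3 and Hoxa2 are shown for the smallest p in the test across the 3 groups. That of Hoxa13 is shown for the highest G and C content. Capitals mark a match to a motif described below. A sequence with no capitals held none.
Hoxa3 promoter, chr6:52213018-52213317, minus strand: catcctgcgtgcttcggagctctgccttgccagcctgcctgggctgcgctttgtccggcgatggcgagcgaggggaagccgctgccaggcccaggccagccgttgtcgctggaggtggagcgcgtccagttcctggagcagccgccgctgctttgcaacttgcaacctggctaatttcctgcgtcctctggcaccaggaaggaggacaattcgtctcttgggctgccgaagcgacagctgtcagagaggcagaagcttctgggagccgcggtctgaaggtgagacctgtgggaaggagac
Hoxa2 promoter, chr6:52164782-52165081, minus strand: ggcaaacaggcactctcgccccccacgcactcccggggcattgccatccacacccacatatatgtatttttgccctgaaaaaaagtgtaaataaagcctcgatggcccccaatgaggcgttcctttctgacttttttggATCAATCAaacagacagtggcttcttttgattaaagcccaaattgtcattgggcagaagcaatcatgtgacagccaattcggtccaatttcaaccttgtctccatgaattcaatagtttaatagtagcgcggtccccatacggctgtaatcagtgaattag
Hoxa13 promoter, chr6:52260831-52261130, minus strand: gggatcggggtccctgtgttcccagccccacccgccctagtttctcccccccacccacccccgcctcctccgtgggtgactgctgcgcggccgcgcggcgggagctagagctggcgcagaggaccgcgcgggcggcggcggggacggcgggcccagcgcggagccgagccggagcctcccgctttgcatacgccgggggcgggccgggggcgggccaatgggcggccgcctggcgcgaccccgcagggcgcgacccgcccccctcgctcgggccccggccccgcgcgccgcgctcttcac

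The G and C content of these windows was 64.0% in Hoxa3, 45.7% in Hoxa2 and 81.0% in Hoxa13. Promoters were found for 18 of 19 Hoxa and Hoxd genes, whose content had a median of 55.3%, from 39.7% in Hoxd4 to 81.0% in Hoxa13, against a median of 52.7% over all genes with a promoter. The ratio of observed to expected CpG dinucleotides had a median of 0.63 in these Hox genes and 0.39 over all. Only 3 of 18 Hoxb and Hoxc genes had a promoter in the table, so no such comparison was made for them.

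None of the 23 Hox promoters held the estrogen response element palindrome GGTCANNNTGACC, which is bound by estrogen receptors and was found in 0.07% of all 32851 promoters. Allowing 1 mismatch gave 0 Hox promoters, against 0.877% of all. The direct repeats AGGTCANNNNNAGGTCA and AGGTCANNAGGTCA, to which retinoic acid receptors bind, were in 0 Hox promoters and in 0.00913% of all promoters each. Motifs this rare are seldom met in any 23 promoters, so these zeros say little, and sites outside the windows were not searched. The single half-site AGGTCA, which is part of these longer motifs, was searched after the data had been seen. It was in 7 Hox promoters (30.4%), those of Hoxa5, Hoxb4, Hoxc4, Hoxd3, Hoxd4, Hoxd8 and Hoxd10, against 16.3% of all promoters. The composite TGATNNAT, a sequence that Hox proteins bind with their Pbx partners, was also added then, and was in 3 of the 23 Hox promoters, those of Hoxa2, Hoxb1 and Hoxd11, against 8.85% of all. Both strands were searched, and a match is a run of letters, not a shown binding site. Windows of 30 bases around 6 of these matches are given, with the match in capitals; the half-site is in the first 4 and the composite in the last 2, and where it reads TGACCT or ATCA it is on the other strand.
Hoxd3, chr2:74711820-74711849, plus strand: tagacctttttaTGACCTatttgcggtcgt
Hoxd4, chr2:74721821-74721850, plus strand: ttgatatgaataTGACCTctctcgcattct
Hoxd8, chr2:74704468-74704497, plus strand: ttcgctttgataAGGTCAggattcggaggc
Hoxd10, chr2:74691810-74691839, plus strand: ctggggaacacgTGACCTgcaaggaggctg
Hoxd11, chr2:74682239-74682268, plus strand: ttaccaccagaATCAATCAagatgaattgc
Hoxb1, chr11:96365585-96365614, plus strand: tgattggggggTGATGGATgggcgctggga

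Signals of different probesets are not levels of RNA that can be set against each other, because probes differ in how strongly they bind, so each gene was placed against a dim reference, the 95th percentile of 1027 olfactory receptor genes on the same array. That reference lay between 5.56 and 5.67 on the log2 scale. On all 9 arrays, 31 of the 37 Hox genes lay above it, as did 63.5% of all genes. With the 99th percentile, which lay between 6.37 and 6.49, 22 Hox genes did.

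All 10 Hoxa genes lay above the dim reference. Their mean log2 signals over the 9 arrays ran from 5.86 for Hoxa2, which acts in the hindbrain and branchial arches, to 8.01 for Hoxa11, which acts in the limb, kidney and reproductive tract. Of the 9 Hoxb genes, Hoxb13 did not stay above the reference. It exceeded it on 2 arrays, both of vehicle, with a mean of 5.45. The other 8 Hoxb genes had means between 6.60 for Hoxb7 and 7.91 for Hoxb9.

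In the Hoxc cluster 6 of 9 genes lay above the reference on all arrays. The other 3 were Hoxc4 at the anterior end (mean 5.54, above it on 1 array) and Hoxc12 (5.18) and Hoxc13 at the posterior end, above it on none. In the Hoxd cluster 7 of 9 genes lay above it on all arrays. Hoxd1 and Hoxd3 lay above the reference on no array, Hoxd4 had a mean of 5.89, and Hoxd10 to Hoxd13 had 7.34, 7.48, 5.78 and 7.70. Hoxd13 shapes the digits and the genital tubercle.

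**Figure D1:**
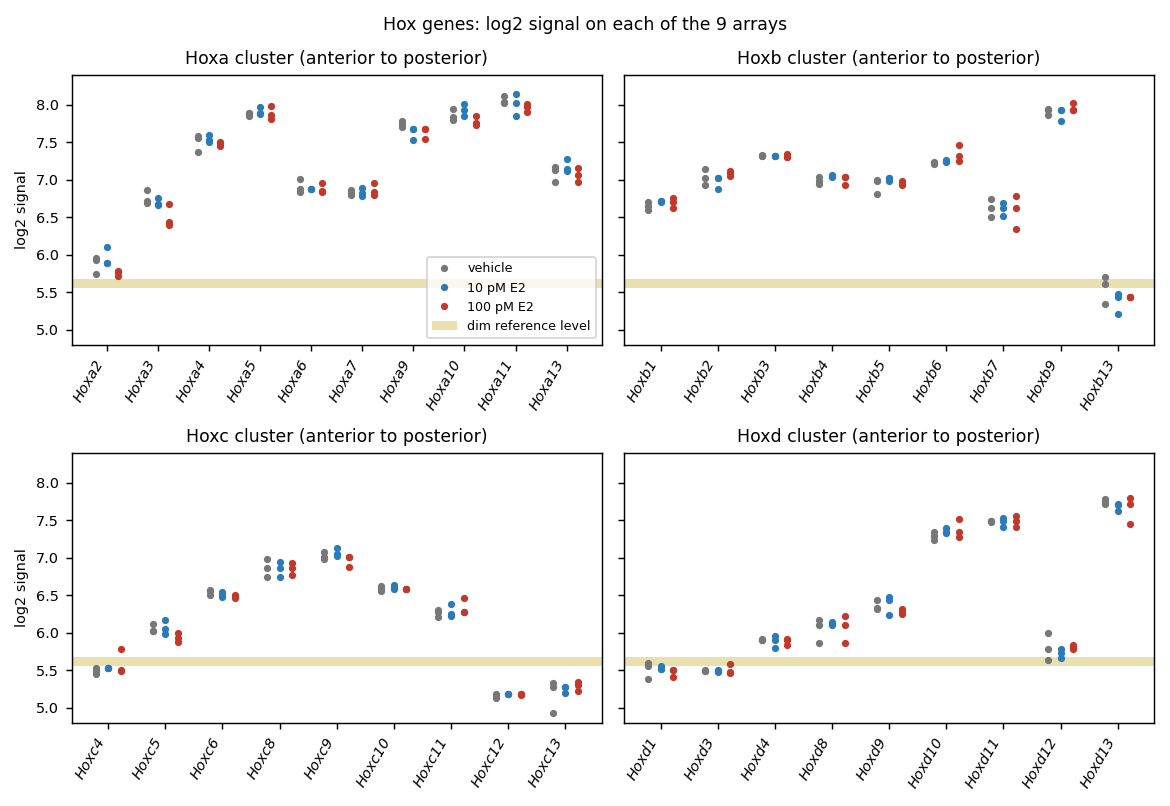
Log2 signal (y axis) of each Hox gene on each array, with genes of the 4 clusters ordered from anterior to posterior (x axis). Points are the 3 arrays each of vehicle, 10 pM E2 and 100 pM E2, and the band spans the dim reference level, 5.56 to 5.67. The groups lie close together at every position, and Hoxb13, Hoxc4, Hoxc12, Hoxc13, Hoxd1 and Hoxd3 lie in, across or below the band on some or all arrays.

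Whether E2 dose altered expression was tested in 1 fit over all genes with limma, a linear model that shares information on the spread between genes, with p-values adjusted by Benjamini-Hochberg over 19938 genes and called below 0.05. No Hox gene was called in the F test over the 3 groups (0 of 37), against 0.843% of all genes. At an unadjusted p below 0.05, 1 Hox gene passed (2.7%), against 9.15% of all genes. One-way analysis of variance called 0 Hox genes after adjustment, where it called only 0.00502% of all genes. It passed 0 Hox genes at an unadjusted p below 0.05, where 7.36% of all genes passed. The arrays measured RNA of whole cultures, in which fewer cells of a type and less RNA per cell cannot be told apart.

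Between 100 pM E2 and vehicle limma called 0 of 37 Hox genes, against 1.13% of all genes. At an unadjusted p below 0.05, 2 Hox genes (5.41%) passed, Hoxa3 and Hoxb6, against 10.9% of all genes. The 3 arrays of 100 pM E2 did not overlap the 3 of vehicle for 5 Hox genes (13.5%), against 12.5% of all genes. Of these, Hoxa3, Hoxa9, Hoxa11 and Hoxc5 were lower with 100 pM E2 and Hoxb6 was higher.

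With 10 pM E2 against vehicle, limma called 0 of 37 Hox genes, against 0.0% of all genes. At an unadjusted p below 0.05 there were also 0 Hox genes, against 3.54% of all. The arrays did not overlap for 2 Hox genes (5.41%), Hoxa9 and Hoxb6, against 5.93% of all genes.

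Between 100 pM and 10 pM E2 limma called 0 of 37 Hox genes, against 0.833% of all genes. Hoxa2, Hoxa3, Hoxa10 and Hoxc5 passed an unadjusted p below 0.05 (10.8%), against 10.2% of all genes. The arrays did not overlap for 6 Hox genes (16.2%), against 12.3% of all genes. These were Hoxa2, Hoxa4, Hoxa10, Hoxc9 and Hoxd1, which were lower with 100 pM E2, and Hoxb2, which was higher.

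The intervals give the precision of these comparisons, as far as the spread among arrays goes. In each of the 3 comparisons the 95% interval of the log2 difference lay within 0.5 of zero for all 37 Hox genes, as it did for 97.5%, 98.7% and 97.6% of all genes with 100 pM E2 against vehicle, 10 pM E2 against vehicle and 100 pM E2 against 10 pM E2. Within 0.25 of zero lay the intervals of 28, 31 and 27 Hox genes in the same order (75.7%, 83.8% and 73.0%), against 72.8%, 78.7% and 73.5% of all genes. The farthest bounds were -0.43 and 0.32 with 100 pM E2 against vehicle, the lower one that of Hoxa3 and the upper that of Hoxc13. They were -0.39 (Hoxb13) and 0.30 (Hoxd8) with 10 pM E2 against vehicle. Where a probeset is not above the dim reference, a narrow interval does not bound a change of the gene. Over the 31 Hox genes above that reference on all arrays, 25, 27 and 22 intervals lay within 0.25 of zero in the same order of comparisons, and all 31 within 0.5 in each.

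**Figure D2:**
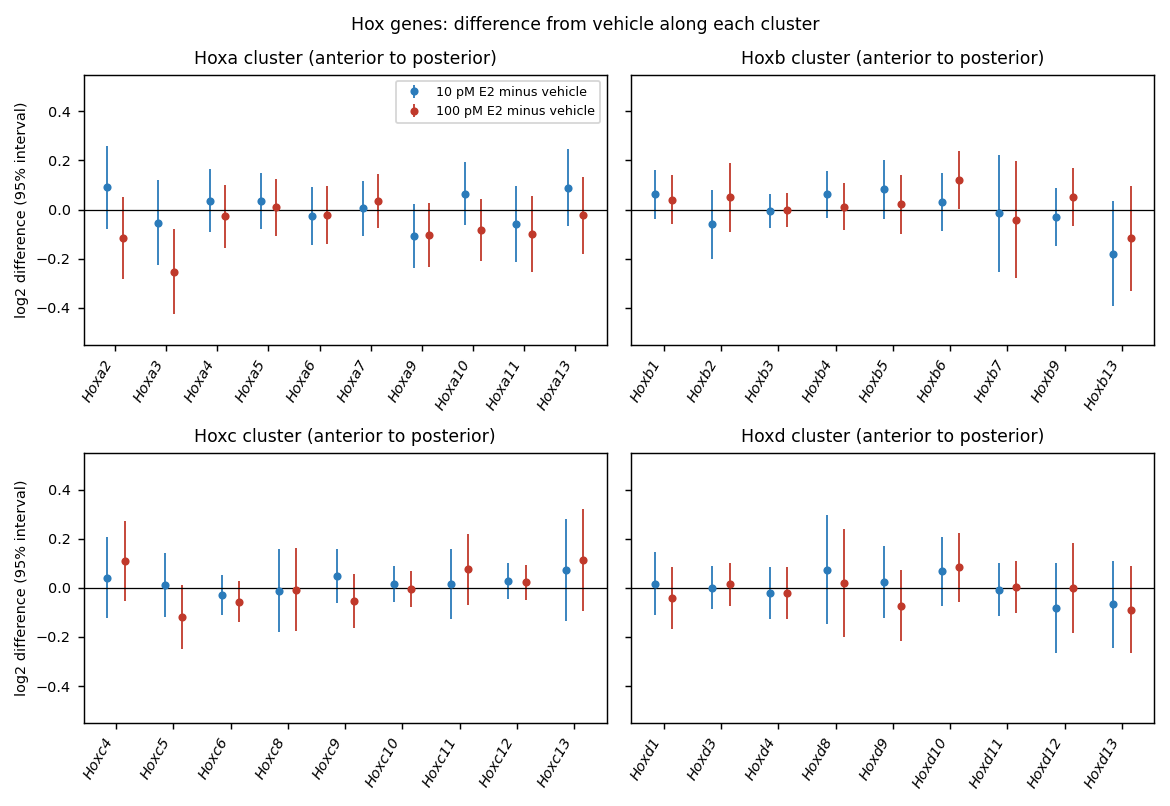
Log2 difference from vehicle (y axis) of each Hox gene, by cluster and position (x axis), for 10 pM E2 and 100 pM E2. Bars are 95% intervals of the limma fit, n = 3 arrays per group; both differences of a gene share its vehicle arrays. All intervals lie within 0.5 of zero, and the one farthest from it is that of Hoxa3 with 100 pM E2, from -0.43 to -0.08.

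The 7 genes described next are the 6 with the smallest p in the F test and Hoxb13, which had the largest difference with 10 pM E2. Hoxa3, which is needed for the thymus, parathyroid and carotid body, stood first. It had log2 signals of 6.86, 6.68 and 6.71 with vehicle, 6.67, 6.68 and 6.75 with 10 pM E2, and 6.43, 6.39 and 6.67 with 100 pM E2. All 3 arrays of 100 pM E2 were below all of vehicle, and the third lay close to the lowest vehicle array. The difference with 100 pM E2 against vehicle was -0.25 ± 0.08 (SE, n = 3 arrays per group; interval -0.43 to -0.08), or 0.839-fold, with an adjusted p of 0.228 in limma. Leaving out 1 array at a time gave differences between -0.34 and -0.20 with adjusted p between 0.0513 and 0.533, the smallest p without the third 100 pM array. Its paralogs gave -0.00 ± 0.03 (Hoxb3) and 0.01 ± 0.04 (Hoxd3, dim) in the same comparison. The difference between paralogs was not tested.

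Hoxa2, its neighbour toward the anterior end, had log2 signals of 5.92, 5.95 and 5.74 with vehicle, 6.11, 5.89 and 5.89 with 10 pM E2, and 5.77, 5.78 and 5.71 with 100 pM E2. The 100 pM arrays lay below all 10 pM arrays but overlapped those of vehicle. The difference with 100 pM E2 against 10 pM E2 was -0.21 ± 0.07 (adjusted p = 0.368 in limma), and it was -0.13 without the first 10 pM array. Against vehicle it was -0.12 ± 0.07 with 100 pM E2.

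Hoxa10, which acts in the uterus, the testis and the prostate, had log2 signals of 7.94, 7.84 and 7.80 with vehicle, 7.92, 8.00 and 7.85 with 10 pM E2, and 7.76, 7.72 and 7.85 with 100 pM E2. Its 100 pM arrays lay just below its 10 pM arrays and overlapped vehicle. The difference with 100 pM E2 against 10 pM E2 was -0.15 ± 0.06 (adjusted p = 0.401 in limma). Against vehicle it was 0.07 ± 0.06 with 10 pM E2 and -0.08 ± 0.06 with 100 pM E2, and this last value was -0.04 without the first vehicle array.

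Hoxc5, a central Hoxc gene expressed in the trunk, had log2 signals of 6.02, 6.02 and 6.12 with vehicle, 6.05, 6.17 and 5.98 with 10 pM E2, and 6.00, 5.93 and 5.87 with 100 pM E2. Its arrays of 100 pM E2 lay below those of vehicle. The difference was -0.12 ± 0.06 (adjusted p = 0.506 in limma), and with 100 pM E2 against 10 pM E2 it was -0.13 ± 0.06 (adjusted p = 0.483).

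Hoxb6, a central Hoxb gene, was the 1 member higher with 100 pM E2 at an unadjusted p below 0.05. It had log2 signals of 7.22, 7.23 and 7.21 with vehicle, 7.27, 7.23 and 7.25 with 10 pM E2, and 7.31, 7.46 and 7.25 with 100 pM E2. Every E2 array was above every vehicle array, and the second 100 pM array was the highest. The difference with 100 pM E2 against vehicle was 0.12 ± 0.05 (adjusted p = 0.445 in limma), and it was 0.06 without that array. With 10 pM E2 it was 0.03 ± 0.05.

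Hoxa9, which patterns the lumbar region and acts in blood stem cells, had log2 signals of 7.78, 7.70 and 7.74 with vehicle, 7.68, 7.68 and 7.52 with 10 pM E2, and 7.68, 7.54 and 7.68 with 100 pM E2. All E2 arrays were below all vehicle arrays, the nearest pair being 7.68 and 7.70. The differences were -0.11 ± 0.06 with 10 pM E2 and -0.10 ± 0.06 with 100 pM E2, and the value for 100 pM E2 was -0.06 without the second 100 pM array. The same value was deposited for 4 of its 9 arrays.

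Hoxb13, which is required in mouse for differentiation of ventral prostate epithelium, was near the dim reference. It had log2 signals of 5.60, 5.71 and 5.35 with vehicle, 5.43, 5.21 and 5.47 with 10 pM E2, and 5.44, 5.43 and 5.44 with 100 pM E2. The vehicle arrays overlapped those of both E2 doses. The difference with 10 pM E2 against vehicle was -0.18 ± 0.09 (adjusted p = 1.0 in limma). It was -0.28 without the third vehicle array, -0.10 without the second vehicle array and -0.10 without the second 10 pM array.

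**Figure D3:**
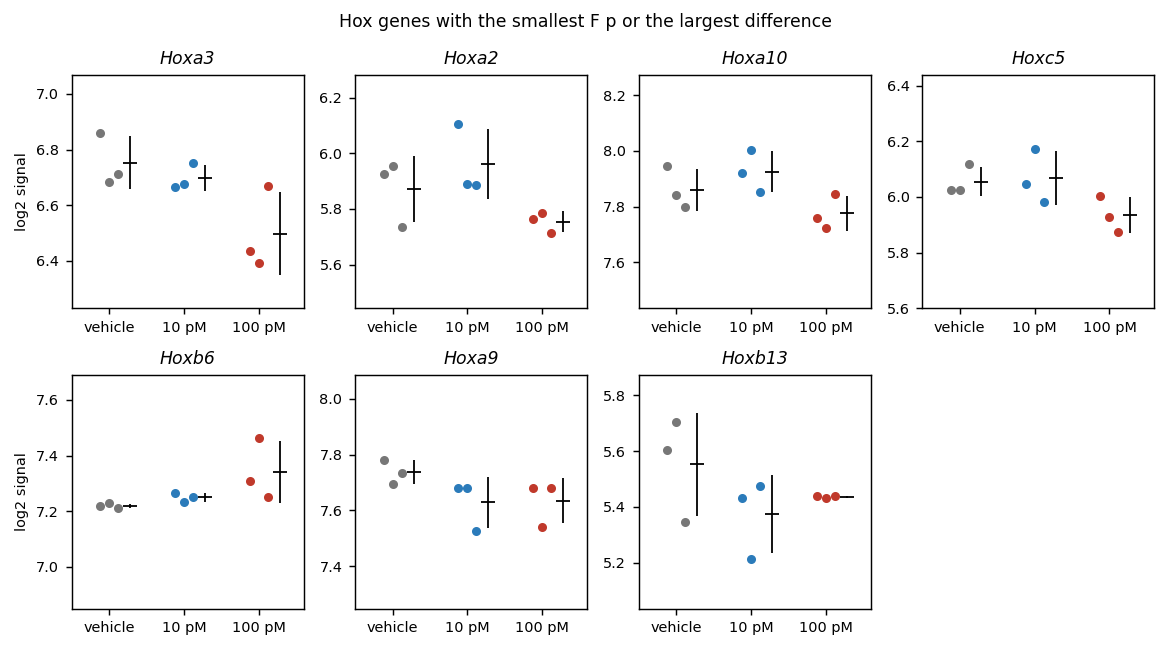
Log2 signal (y axis, the same span in each panel) of 7 Hox genes with vehicle, 10 pM E2 and 100 pM E2 (x axis). Points are single arrays in replicate order, and the black mark beside them is the mean with its SD (n = 3 arrays). Hoxa3 with 100 pM E2 has 2 arrays at 6.43 and 6.39 and the other at 6.67, next to the vehicle arrays.

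Hoxa13 and Hoxd13, the other posterior genes named above for a role in the prostate, had intervals that held zero. Hoxa13, which acts in the hindgut, genital tubercle and urogenital sinus, averaged 7.09 ± 0.10 with vehicle, 7.18 ± 0.09 with 10 pM E2 and 7.06 ± 0.09 with 100 pM E2 (SD, n = 3 each). The difference with 100 pM E2 against vehicle was -0.02, with an interval from -0.18 to 0.13. Hoxd13 averaged 7.75 ± 0.03 with vehicle, 7.68 ± 0.05 with 10 pM E2 and 7.66 ± 0.18 with 100 pM E2. Its difference with 100 pM E2 against vehicle was -0.09, with an interval from -0.27 to 0.09, and the low value in that group was the first array at 7.46. Hoxa11, which is not among the prostate genes named above, gave -0.10 ± 0.07 in that comparison, with an interval from -0.25 to 0.06. Its 100 pM arrays did not overlap those of vehicle.

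As a set, the Hox genes had medians near zero. With 100 pM E2 against vehicle the median log2 difference was -0.01 over the Hox genes and 0.00 over all genes. Of the Hox genes 16 were higher and 21 lower (10561 and 9363 of all genes). Quantile normalization gave 20 higher and 17 lower, with a median of 0.0052 over the Hox genes. It also raised the median over all genes, from 0.0049 to 0.012. With 10 pM E2 against vehicle the medians were 0.01 and 0.00, with 22 higher and 15 lower. Between the E2 doses, 100 pM against 10 pM, they were -0.02 and 0.00, with 16 higher and 21 lower. The median size of the difference was 0.04, 0.04 and 0.05 over the Hox genes and 0.05, 0.04 and 0.05 over all genes, in the same order. Hoxa3 was the 1 Hox gene that differed by over 0.25 in any of the 3 comparisons.

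By cluster, 8 of 10 Hoxa genes were lower with 100 pM E2 than with vehicle, with a median of -0.06, where 9363 of all 19938 genes were lower. In a check added after the data had been seen, that split was 8 of 10 with quantile normalization and with median centring too. The Hoxa median was -0.0555 as deposited, -0.0497 with quantile normalization and -0.0494 with median centring. Median centring moves all differences by the same amount, too small here to reach Hoxa13 (-0.0238), the lower Hoxa gene nearest zero. It could therefore not change the split, and the split was not counted with an array left out. Of the Hoxb genes 6 were higher and 3 lower (median 0.02), of the Hoxc genes 4 higher and 5 lower (median -0.01), and of the Hoxd genes 4 higher and 5 lower. With 10 pM E2 against vehicle the Hoxa genes were 6 higher and 4 lower. These are counts of genes read on the same arrays, and no test was made over them.

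The differences were next set against position along the cluster. The medians with 100 pM E2 against vehicle were -0.00 over the 11 anterior genes (paralog groups 1 to 4), 0.00 over the 10 central genes (groups 5 to 8) and -0.01 over the 16 posterior genes (groups 9 to 13). Across the 37 genes, which share the arrays and so are not independent, the correlation of the difference with the paralog number was r = 0.03 and rho = -0.02 with 100 pM E2 against vehicle. With 10 pM E2 against vehicle it was r = -0.21 and rho = -0.13. Between the E2 doses, 100 pM against 10 pM, both r and rho were 0.19. Within single clusters with 10 pM E2 against vehicle, r was -0.05 in Hoxa (10 genes). In Hoxb, Hoxc and Hoxd (9 genes each) it was -0.68, 0.41 and -0.31. In the order Hoxa to Hoxd, rho was -0.15, -0.47, 0.43 and -0.45. With 100 pM E2 against vehicle r was 0.26, -0.54, 0.40 and -0.03, and rho 0.33, -0.23, 0.50 and -0.15. Between the E2 doses r was 0.28 in each cluster, and rho 0.32, 0.07, 0.20 and 0.35. Dim genes lie at the posterior end of Hoxb (Hoxb13), both ends of Hoxc (Hoxc4, Hoxc12, Hoxc13) and the anterior end of Hoxd (Hoxd1, Hoxd3).

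The order of the 3 group means was counted with no test. It rose with dose for 7 Hox genes (18.9%, against 21.1% of all genes) and fell with dose for 6 (16.2% against 17.1%). The 10 pM mean was the highest for 15 Hox genes (40.5% against 32.1%) and the lowest for 9 (24.3% against 29.6%).

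Whether neighbouring Hox genes moved together from array to array was also described. After the group means were removed, the median correlation over the 9 arrays was 0.07 over 33 pairs of neighbours, 0.11 over 153 pairs within a cluster, 0.11 over 38 pairs of paralogs and 0.05 over 513 pairs from different clusters. These are descriptions over few arrays that also share normalization. The spread between replicates was ordinary, with a median pooled SD of 0.073 over the Hox genes and 0.071 over all genes, from 0.0132 for Hoxb3 to 0.152 for Hoxb7.

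**Figure D4:**
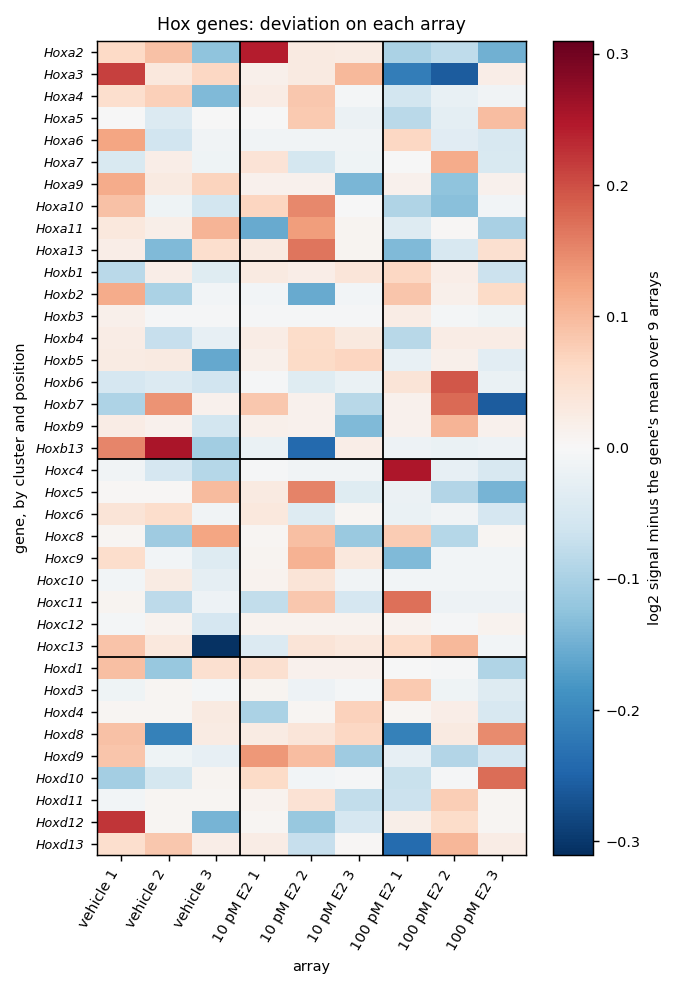
Log2 signal of each Hox gene (rows, by cluster and position) on each array (columns) minus the gene's mean over the 9 arrays, with lines between groups and clusters. Of all these deviations 82.6% were smaller than 0.1, the largest being that of Hoxc13 on the third vehicle array (-0.31). The neighbours Hoxa2, Hoxa3 and Hoxa4 have 9 values in each group. Of these, 7 are above the gene's mean with vehicle, 8 with 10 pM E2 and 1 with 100 pM E2. The count was made after the values were seen, and Hoxa3 and Hoxa2 are the members of smallest F p. It therefore in part restates differences given above, over genes read on the same arrays, and no other neighbours were counted.

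Many deposited values were tied. For 31 Hox genes (83.8%, against 72.7% of all genes) at least 2 arrays had the identical value to the last digit, and for 8 (21.6%, against 27.8%) at least 4 did. Hoxa6 had 6.88 on all 3 arrays of 10 pM E2 and on 1 of vehicle, and Hoxb3 had 7.31 on all 3 arrays of 10 pM E2 and 2 of vehicle.

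Partners and neighbours of the Hox genes were read from fixed lists. Hox proteins bind DNA together with homeodomain partners of the Pbx, Meis and Pknox families, of which 8 of 9 were measured. None was called in any comparison by limma, while 3 of 8 passed an unadjusted p below 0.05 with 100 pM E2 against vehicle, where 10.9% of all genes did. Of the 8, 7 were lower, as were 9363 of all 19938 genes. Pknox2 had log2 signals of 7.88, 7.91 and 8.11 with vehicle, 7.90, 7.95 and 7.88 with 10 pM E2, and 7.80, 7.75 and 7.72 with 100 pM E2. All its 100 pM arrays were below all others, and the difference from vehicle was -0.21 ± 0.06 (adjusted p = 0.203 in limma). Meis1 gave -0.15 ± 0.05 (adjusted p = 0.268) and Meis2 -0.15 ± 0.06 (adjusted p = 0.374), while Pbx3 gave 0.02 ± 0.04.

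Genes and noncoding RNAs that flank the clusters (14 of 18 measured) had 0 called in any comparison, and 0 at an unadjusted p below 0.05. Against vehicle, 1.13% of all genes were called with 100 pM E2 and 0.0% with 10 pM E2. Between the E2 doses 0.833% were called. At the unadjusted threshold the shares of all genes were 10.9%, 3.54% and 10.2% in the same order. The 4 of smallest F p included Calcoco1, beside Hoxc (-0.10 with 100 pM E2 against vehicle), and Snx10 (0.06). The others were Ttll6 (0.09, dim) and Evx1, the homeobox gene next to Hoxa13 (-0.18 ± 0.11, dim). Chromatin regulators of the clusters, the Polycomb proteins that silence and the trithorax proteins that keep them active, had 0 of 25 measured called (27 listed), and 0 at an unadjusted p below 0.05. The shares of all genes beside these counts are those just given, and with so few genes called a list of this size says little. Of these Men1, a trithorax-complex subunit, gave 0.01 with 100 pM E2 against vehicle. The Polycomb members Pcgf2, Cbx8 and Phc3 gave -0.08, -0.04 and -0.11 in that comparison. Men1 gave 0.10 ± 0.05 with 10 pM E2 against vehicle and -0.10 ± 0.05 with 100 pM E2 against 10 pM E2. Of 15 upstream regulators, retinoid receptors and enzymes and caudal factors, 0 were called and 1 passed an unadjusted p below 0.05 with 100 pM E2 against vehicle, where 10.9% of all genes did. It was Rarb, a retinoic acid receptor, with -0.16 ± 0.05 (adjusted p = 0.283 in limma). Rxrg gave 0.12 (dim), Rarg -0.07 and Gdf11, a growth factor that acts on axial patterning, 0.05.

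MicroRNA genes lie inside the clusters, and 5 picked by name, each with a probeset, were read. Other microRNA genes of the clusters were not looked for. The 5 were added after the data had been seen. The array reads RNA of the gene or its precursor rather than the short mature form. Mir10a and Mir10b give the miR-10 family and the 3 Mir196 genes the miR-196 family, which is known to target Hox mRNAs. The mature sequences from RefSeq fall in 2 groups by their seed, bases 2 to 8, in capitals.
mmu-miR-10a-5p, from Mir10a, chr11:96317186-96317208, plus strand: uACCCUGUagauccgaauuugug
mmu-miR-10b-5p, from Mir10b, chr2:74726074-74726096, plus strand: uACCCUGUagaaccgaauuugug
mmu-miR-196a-5p, from Mir196a-1, chr11:96265187-96265208, plus strand: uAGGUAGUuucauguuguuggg
mmu-miR-196b-5p, from Mir196b, chr6:52230129-52230150, minus strand: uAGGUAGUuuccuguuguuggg

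Mir10b lies within the RefSeq spans of Hoxd3 and Hoxd4, Mir10a between the starts of Hoxb4 and Hoxb5 and within the span of Hoxb3, Mir196b between Hoxa9 and Hoxa10, and Mir196a-1 between Hoxb9 and Hoxb13. Mir196a-2, between Hoxc9 and Hoxc10, gives the same mature sequence as Mir196a-1. None was called by limma in any comparison, and the smallest unadjusted p was 0.0625, for Mir196a-1 with 100 pM E2 against 10 pM E2 (0.20 ± 0.10). Its log2 signals were 5.94, 6.05 and 6.00 with vehicle, 5.81, 5.93 and 5.96 with 10 pM E2, and 5.96, 6.35 and 6.00 with 100 pM E2. The second 100 pM array, which was also the highest for Hoxb6, was the highest of the 9. Signals of Mir10a, Mir10b and Mir196a-2 were below the dim reference on all arrays.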

How the data were processed

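Values were used as deposited, as log2 signals of probesets on Affymetrix Mouse Gene 1.0 ST arrays, produced by the authors with GCOS and the Gene Expression Console (version not given in the sources used here). Their range gave the log2 scale. Probesets were named from GEO's platform annotation. Of 35556 probesets, 21789 had 1 gene symbol, 1621 had several and 12146 none. For 999 genes with over 1 probeset the one with the highest mean was used, which left 19938 genes. Every Hox member had 1 probeset.

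Groups came from the sample titles. In limma 3.58.1 (R 4.3.3), lmFit estimated a mean for each group from the 9 arrays together and eBayes gave two-sided tests, with no filter on dim genes. Figures were drawn with matplotlib 3.10.9. The procedure was tested on simulated data. Values in every array are given for any Hox gene called, the 6 of smallest F p and the one with the largest difference in each comparison, and for at most 4 genes per list by F p. The Hox members and all lists were chosen with earlier results of these data known. The number of arrays limits the precision, and signal over background could not be read from scanner files, which were not used here. Alternatives are given in the closing section.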

Additional observations from a re-analysis of the deposited data

How the results depend on the processing

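No Hox gene was called in any comparison under any alternative: 21 alternatives for the F test and 20 for each pairwise comparison, among them quantile normalization, median centring, leaving out the dimmest 30% of genes, all probesets, averaged probesets, other variance settings, array weights, only the compared groups, an adjusted p below 0.1, analysis of variance (F test) and each array left out. One of them, without both replicate 2 arrays of vehicle and 100 pM E2, was chosen after seeing the data. The share of all genes called is not given for most alternatives, so these zeros have no background beside them. Analysis of variance called 1 of all 19938 genes after adjustment. With 10 pM E2 against vehicle the fit described above called 0.0% of all genes. In those settings 0 Hox genes says little.

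With the replicate number as a block (replicate block), 0 Hox genes were called. Hoxa3 had an adjusted p of 0.239 in limma with 100 pM E2 against vehicle. The block could not change the differences or their medians, because each replicate number occurs once in every group. Same-numbered arrays deviated together with r between -0.112 and 0.2, so the numbers were not taken as pairs.

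The medians moved by more than the spread between arrays (SD 0.0122) in some alternatives, and the cause was not tested. With 100 pM E2 against 10 pM E2 the median was -0.0057 with array weights and ranged from -0.0237 to -0.0046 with 1 array left out. With 10 pM E2 against vehicle it ranged from 0.0030 to 0.0294 with 1 array left out. Between 100 pM E2 and vehicle it was -0.0291 without those replicate 2 arrays, and with 1 array left out it ranged from -0.0145 to 0.0014, within that spread. The 7 named genes kept their direction with 100 pM E2 against vehicle in every alternative run. So did Hoxb13 with 10 pM E2 against vehicle and Hoxa2 with 100 pM E2 against 10 pM E2. Several alternatives could not change a difference, so the direction was fixed there. These were all probesets, averaged probesets, other variance settings, the replicate block, only the compared groups and the adjusted p below 0.1. Other differences of the 7 named genes were not recomputed. Hoxb13 has no value without the dimmest genes, which also left out Hoxc12 and Hoxc13. Its difference with 100 pM E2 against vehicle was between -0.22 and -0.04, and that of Hoxa2 between -0.18 and -0.08.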
